A study of Homo sapiens with 4 samples.

Results

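The 35 genes described here encode collagens, laminins, nidogens, fibronectin, fibrillins, matrilin 2, matricellular proteins and lysyl oxidases. They are given as a list of names, with no threshold on their values, and all 35 were found among the 62649 gene identifiers counted. RNA came from A375, a human melanoma cell line with an activating BRAF mutation, grown as cultured cells. The control group (2 libraries) was the parental line. The vemurafenib-resistant group (2 libraries) was the same line after its vemurafenib, an inhibitor of mutant BRAF kinase, had been raised week by week from 0.1 to 6.4 µM. All libraries shared the same serum-containing medium. The protocol mentions harvest following drug treatment without tying a drug to these libraries, and no label says if the cells still had vemurafenib when collected, or whether the resistant cells were 1 clone or a mixed population. The series' design text calls the replicates biological without naming separate cultures, and p-values thus rest on how far these libraries lie apart, a spread that could be partly technical. In bulk RNA, fewer cells that express a gene and less RNA of it in each cell cannot be told apart.

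The extracellular matrix takes the form of fibres and of thin sheets. Fibrillar collagens assemble into banded fibres that carry tension, and fibril-associated collagens sit on the surface of those fibres. Basement membranes are thin sheets in which a laminin network and a collagen IV network are joined by nidogens and the proteoglycan perlecan. Transmembrane collagens are instead anchored in the plasma membrane, and their ectodomains can be shed. Matricellular proteins such as thrombospondins and tenascin-C modulate cell adhesion more than they build fibres, and lysyl oxidases cross-link collagen and elastin. Melanoma cells make matrix of their own and also meet the basement membrane between epidermis and dermis during invasion.

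Counts assigned to genes totalled 68022689 to 87178097 per library. Control replicate 1 stood apart, since it held 0 odd counts, whereas even values made up 62.1% to 64.5% of the counts from 1 to 10 in each other library. Results are therefore also given without it. The melanoma or melanocyte markers were present in part. SOX10, a transcription factor of the melanocyte lineage, lay at 704 to 1149 CPM (counts scaled to library size, normalised by trimmed mean of M-values), while the pigment genes PMEL and TYR lay at 1.08 to 2.07 and 0.0985 to 0.208 CPM.

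The comparison of resistant with control cells asks which matrix transcripts differ between the adapted cells and their parent line. COL13A1, the transmembrane collagen, fell 5.03-fold and was the single member past the threshold, an adjusted p of 0.05 in edgeR's quasi-likelihood test with Benjamini-Hochberg adjustment over 24961 genes. That was 2.86% of the members, beside 1.09% of all tested genes called in either direction and 0.513% called lower. Fibrillar collagens and basement membrane collagens had no called member, and their summed levels were 1.12 and 1.08 times those of the controls. The difference between classes was not tested. At an unadjusted p under 0.05, 7 members passed (20%), against 13.5% of all genes: COL13A1, COL12A1, LOXL2, COL9A3, THBS1 and LAMB1 with negative and LAMA1 with a positive fold change. By DESeq2, 4 members were called (11.4%, against 5.2% of all genes), namely COL13A1, COL12A1 and LOXL2 as lower and LAMA1 as higher. The 2 groups did not overlap in 18 members, 9 higher and 9 lower in resistant cells, which is 51.4% of the members beside 44.6% of all genes. The median log2 fold change was 0.10 over the members and 0.0056 over all genes. All 35 members passed the filter on low counts.

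**Figure D1:**
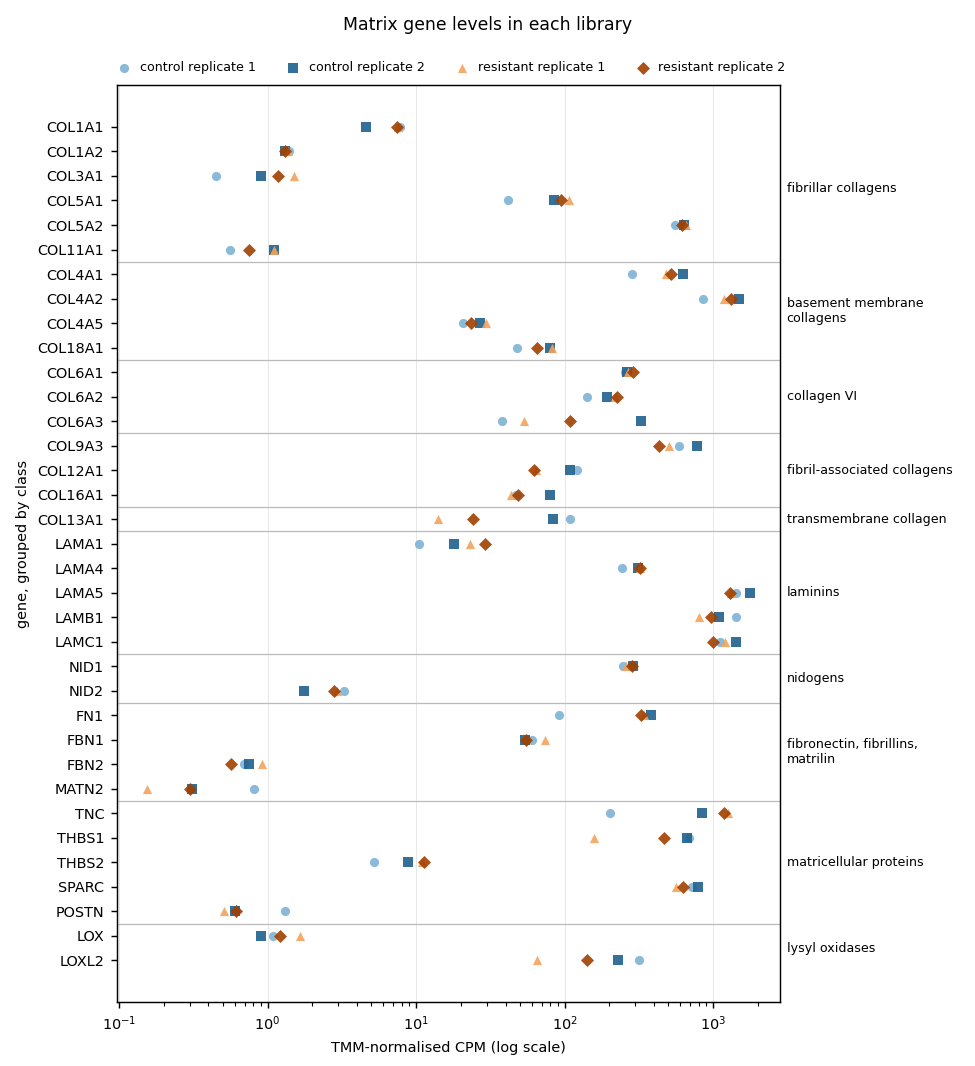
TMM-normalised CPM of each of the 35 matrix genes (horizontal axis, log scale) in the 4 libraries, with genes grouped by class from fibrillar collagens at the top to lysyl oxidases at the bottom. The resistant libraries of COL13A1 lie at 13.96 and 24.2 CPM, left of both controls at 109 and 83.3 CPM, and the controls of COL6A3, FN1 and TNC lie far apart.

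**Figure D2:**
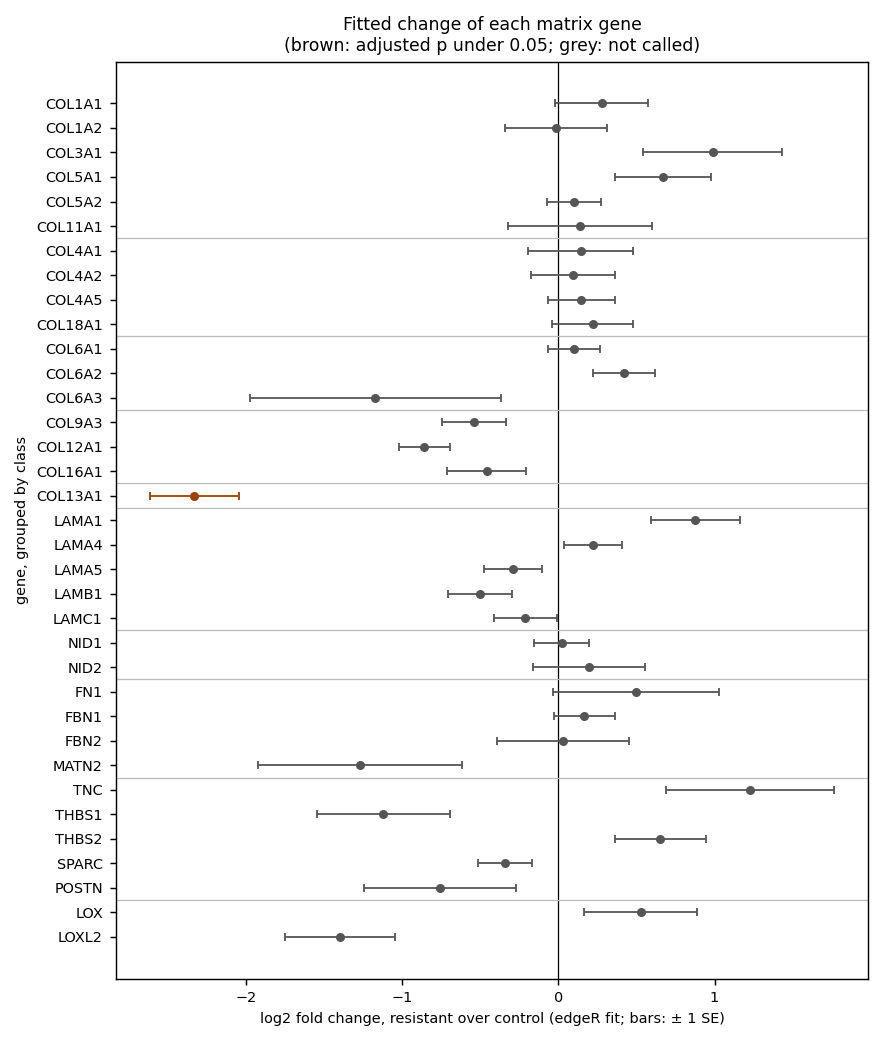
Fitted log2 fold change of each matrix gene, resistant over control, with bars of 1 SE from the edgeR fit. COL13A1, at -2.33, is the single gene past an adjusted p of 0.05, and the 3 fibril-associated collagens lie below 0.

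The stretch before the start of COL13A1 is shown because it is the member called by edgeR. It reads the plus strand of RefSeq's GRCh38.p14 sequence at chr10:69801656-69801879, which ends at the base before the gene's first annotated base in GENCODE (69801880) and lies upstream of the RefSeq start at 69801906. Capitals mark a TATAAA match.
COL13A1: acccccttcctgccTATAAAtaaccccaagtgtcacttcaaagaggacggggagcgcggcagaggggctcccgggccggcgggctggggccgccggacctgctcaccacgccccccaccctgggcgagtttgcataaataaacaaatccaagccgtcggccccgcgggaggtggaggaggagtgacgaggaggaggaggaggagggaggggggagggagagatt
These 224 bases have a GC content of 65.6%. A TATAAA match on either strand lay in the 250 bases before the RefSeq start of 5 of the 26 members with a promoter sequence (19.2%), and in 10.7% of all 35116 promoter windows. The printed stretch holds none of the other motifs searched, which were CCAAT (the CCAAT box), GGGCGG (the GC box), TGANTCA (the AP-1 site), GGAATG (the TEAD site) and CACGTG (an E-box). The AP-1 site lay in the window of 1 member (POSTN) and in 6.57% of all windows, the TEAD site in 5 members and 11.9% of windows, and the E-box in 1 member (FBN2) and 6.34% of windows. A member counted if any of its windows matched, with 30 windows for the 26 members, so shares of members and of windows are unlike measures. Nothing about the factors follows from matches or their absence.

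COL13A1 (ENSG00000197467.17, chromosome 10, 69801880 to 69964275, plus strand) encodes type XIII collagen, a transmembrane collagen found at cell-matrix junctions and the neuromuscular synapse. It lay at 109 and 83.3 CPM in control replicates 1 and 2 and at 13.96 and 24.2 CPM in resistant replicates 1 and 2. Both resistant libraries were therefore low, and the lower control was 3.44 times the higher resistant library. The group means were 96.0 ± 17.9 and 19.1 ± 7.25 CPM (SD, n = 2 each). The log2 fold change was -2.33 ± 0.29 (SE; edgeR adjusted p = 0.0206, DESeq2 adjusted p = 3.98e-13). It was -2.12 without control replicate 1 and stayed between -2.78 and -1.98 with any 1 library left out, with edgeR adjusted p from 7.46e-07 to 0.0493. With the replicate number as a block, the edgeR adjusted p was 0.056. Its neighbours had no like difference in their median, and single neighbours were not examined. Among the 74 tested genes of at least 1 CPM within 5 Mb, the median log2 fold change was 0.06, and 27 had a negative value. None of its exonic bases overlapped another gene.

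The other transmembrane collagens were scarce. COL17A1, the hemidesmosomal collagen XVII, lay at 4.58 and 2.59 CPM in the controls and 2.27 and 2.43 CPM in the resistant libraries, with an edgeR adjusted p of 0.522. COL23A1 lay between 0.196 and 0.439 CPM, with an edgeR adjusted p of 0.958. COL25A1 had 0, 29, 6 and 5 counts in control replicates 1 and 2 and resistant replicates 1 and 2 and was too low to be tested. Per exon length COL13A1 lay at 8.34 CPM per kb in the controls, above COL17A1 at 0.513, and at 1.66 and 0.336 CPM per kb in the resistant group.

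The 3 fibril-associated collagens all had negative fold changes, with a median of -0.54, and none was called by edgeR. COL12A1, which encodes collagen XII on the surface of collagen I fibres, lay at 121 and 108 CPM in the controls and at 64.2 and 62.0 CPM in the resistant libraries. The groups did not overlap, and the libraries within each were close. Its log2 fold change was -0.86 ± 0.16, with an edgeR adjusted p of 0.059 and a DESeq2 adjusted p of 0.00302, and it ranged from -0.93 to -0.78 with any 1 library left out. COL9A3, a chain of the cartilage-type collagen IX, had the highest level of any member collagen per exon length, with 141 CPM per kb of exon in the controls and 97.1 in the resistant group. Its CPM were 588, 777, 506 and 434 in control replicates 1 and 2 and resistant replicates 1 and 2. Both resistant libraries were below both controls, with a fitted log2 change of -0.54 ± 0.20 (edgeR adjusted p = 0.299). COL16A1, a minor fibril-associated collagen, lay at 47.0, 79.9, 43.5 and 48.8 CPM in the same order, so the groups overlapped. The summed level of the class was 755 and 966 CPM in the controls and 614 and 545 CPM in the resistant libraries, a ratio of 0.673 with no test.

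**Figure D3:**
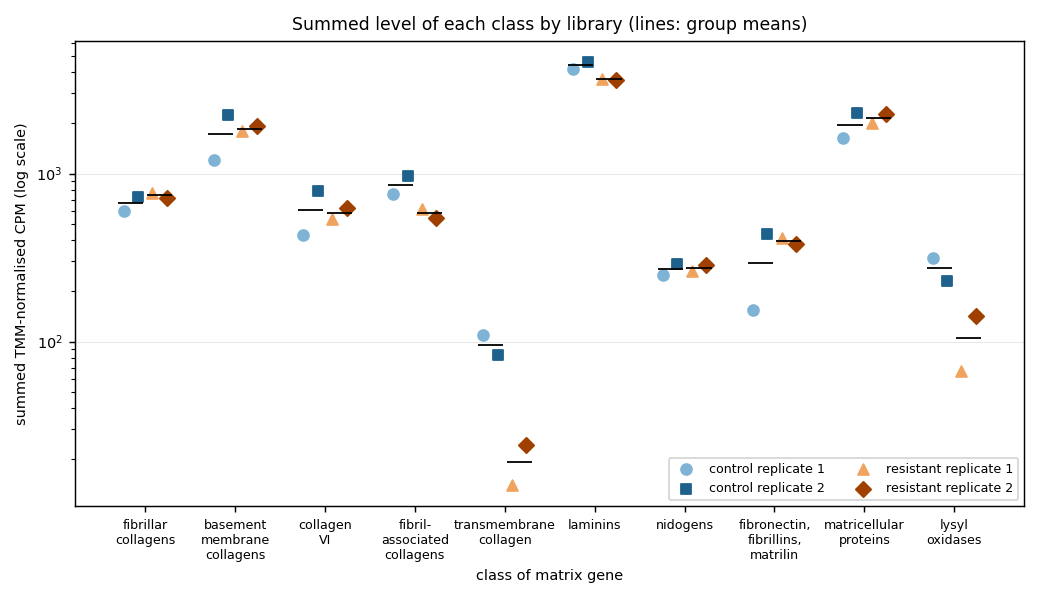
Summed TMM-normalised CPM of each class of matrix gene (vertical axis, log scale) in each library, with black lines at the group means. The groups of fibrillar, basement membrane and collagen VI genes overlap. Those of the transmembrane class (COL13A1 alone), the fibril-associated collagens, the laminins and the lysyl oxidases (LOX and LOXL2) do not.

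Among the fibrillar collagens COL5A2 had the highest level per exon length, with 80.8 CPM per kb in the controls and 86.5 in the resistant group. COL5A2, which encodes the alpha2 chain of collagen V, a collagen that starts fibres, lay at 550.1 and 632 CPM in the controls and 651 and 615 CPM in the resistant libraries. Its log2 fold change was 0.10 ± 0.17 (edgeR adjusted p = 0.877). COL5A1, the alpha1 chain of the same molecule, lay at 41.6 and 85.1 CPM in the controls and 107 and 94.6 CPM in the resistant libraries. Both resistant libraries were higher, but the controls were 2.05-fold apart, and the log2 fold change of 0.67 ± 0.31 had an edgeR adjusted p of 0.408. It was 0.24 without control replicate 1 and 1.28 without control replicate 2. COL1A1, the main chain of collagen I, lay at 7.80 and 4.61 CPM in the controls and 7.54 and 7.49 CPM in the resistant libraries, and its partner COL1A2 lay between 1.32 and 1.40 CPM. COL3A1, collagen III, had 32 and 78 counts in the controls against 107 and 98 in the resistant libraries, for a fitted log2 change of 0.99 ± 0.44 (edgeR adjusted p = 0.394). It was 0.58 without control replicate 1 and 1.59 without control replicate 2. COL11A1, a chain of collagen XI, stayed between 0.559 and 1.11 CPM with overlapping groups. Per exon length COL1A2 and COL3A1, of the major collagens of connective tissue, were thus among the 6 lowest members, and 5 of the 6 genes had a positive fold change. The summed CPM of the class were 602 and 725 in the controls against 770 and 720 in the resistant libraries.

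In all 4 basement membrane collagens the groups overlapped. COL4A1 and COL4A2 encode the chains of the most widespread collagen IV molecule. They lie head to head on chromosome 13, where COL4A1 spans 110148963 to 110307157 on the minus strand and COL4A2 spans 110305812 to 110513209 on the plus strand in GENCODE, whose COL4A2 models reach into COL4A1. The 126 bases between the RefSeq starts of the genes, at 110307157 and 110307284, are known as a shared promoter. They are shown because both genes ranked the libraries alike. NID1 on chromosome 1 and COL6A3 on chromosome 2 ranked the libraries in the same order, so that order was not particular to this pair. The stretch is the plus strand of RefSeq's GRCh38.p14 sequence at chr13:110307158-110307283, with a CCAAT and a GGGCGG match in capitals.
COL4A1-COL4A2: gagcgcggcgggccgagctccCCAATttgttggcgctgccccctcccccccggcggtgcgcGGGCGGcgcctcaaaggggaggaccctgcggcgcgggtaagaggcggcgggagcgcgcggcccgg
Its GC content is 80.2%. CCAAT lay in the windows of 10 of the 26 members (38.5%), among them this gene pair, and in 32.01% of all windows. GGGCGG lay in the windows of 18 members (69.2%) and in 42.6% of all windows. Here too a member counted if any of its windows matched, so the 2 shares are unlike measures. The windows of COL4A1 and COL4A2 also share 226 bases.

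COL4A1 lay at 283 and 626 CPM in the controls and 482 and 522 CPM in the resistant libraries. COL4A2 lay at 849 and 1495 CPM in the controls and 1191 and 1314 CPM in the resistant libraries. In both genes control replicate 1 was lowest, control replicate 2 was highest and the resistant libraries lay between them. The log2 fold changes were 0.14 ± 0.33 and 0.10 ± 0.27 (edgeR adjusted p = 0.917 and 0.934). Without control replicate 1 they were -0.32 and -0.25, and without control replicate 2 they were 0.83 and 0.56. The ratio of COL4A2 to COL4A1, per exon length, kept within 1.82 to 2.28 over the 4 libraries although each gene varied more. COL4A5, a collagen IV chain prominent in kidney and skin basement membranes, lay between 20.8 and 29.5 CPM, with an edgeR adjusted p of 0.844. COL18A1, the source of endostatin, lay between 47.6 and 82.9 CPM, with an edgeR adjusted p of 0.798, and 18.5% of its exonic bases are shared with SLC19A1. The summed CPM of the class were 1200.3 and 2228 in the controls against 1785 and 1924 in the resistant libraries.

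The chains of collagen VI, which forms beaded filaments around cells, did not vary alike. COL6A1 lay at 254 and 262 CPM in the controls and 267 and 287 CPM in the resistant libraries, and COL6A2 lay at 140.5, 192, 218 and 227 CPM in the same order. Both resistant libraries were higher in each gene, with log2 fold changes of 0.10 ± 0.17 and 0.42 ± 0.20 (edgeR adjusted p = 0.866 and 0.423). COL6A3, the large alpha3 chain, was read at 38.1 and 328 CPM in the controls and 53.0 and 109 CPM in the resistant libraries. Its controls were 8.59-fold apart, the widest spread of any member, and enclosed both resistant libraries. The log2 fold change was -1.17 ± 0.80 (edgeR adjusted p = 0.608). It was -2.01 without control replicate 1 (edgeR adjusted p = 3.50e-06) and 1.09 without control replicate 2 (edgeR adjusted p = 0.0535), so the direction depended on which control library was read.

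Laminins summed to 4211 and 4621 CPM in the controls and 3660 and 3622 CPM in the resistant libraries, a ratio of 0.824. None of the 5 genes was called by edgeR, and DESeq2 called LAMA1 higher. LAMC1, the gamma1 chain shared by most laminins, lay at 151 CPM per kb of exon in the controls and 130 in the resistant group. It was second to SPARC in the mean of the 4 libraries. LAMA5, the alpha5 chain, lay at 1420.5 and 1766 CPM in the controls and 1312 and 1299 CPM in the resistant libraries. LAMB1, the beta1 chain, lay at 1423 and 1096 CPM in the controls and 807 and 972 CPM in the resistant libraries. In both genes the resistant libraries were below both controls, with log2 fold changes of -0.29 ± 0.19 and -0.50 ± 0.20 (edgeR adjusted p = 0.578 and 0.340).

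The remaining alpha chains had positive values. LAMA1, the alpha1 chain of embryonic basement membranes, lay at 10.4 and 18.0 CPM in the controls and 23.1 and 29.0 CPM in the resistant libraries. The groups did not overlap, and the log2 fold change of 0.88 ± 0.28 had an edgeR adjusted p of 0.216 and a DESeq2 adjusted p of 0.0470. It was 0.54 without control replicate 1. Of the 37 tested genes of at least 1 CPM within 5 Mb of LAMA1 on chromosome 18, 32 had a negative value, with a median of -0.28, whereas LAMA1 had a positive one. In LAMA1, 11.1% of exonic bases are shared with other genes. LAMA4, the alpha4 chain of vessel and peripheral nerve basement membranes, lay at 244 and 311 CPM in the controls and 324 and 323 CPM in the resistant libraries (edgeR adjusted p = 0.690). LAMC1 lay between 1000.2 and 1430.1 CPM with overlapping groups.

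The nidogens, which link laminin to collagen IV, had overlapping groups. NID1 lay at 246 and 289 CPM in the controls and 260 and 283 CPM in the resistant libraries, for a fitted log2 change of 0.02 ± 0.18 (edgeR adjusted p = 0.977). NID2 lay between 1.77 and 3.27 CPM, and 30.7% of its exonic bases are shared with RTRAF.

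FN1, fibronectin, is the adhesive glycoprotein bound by integrins and a common marker of mesenchymal cells. It lay at 91.5 and 380 CPM in the controls and 340 and 325 CPM in the resistant libraries. Control replicate 1 was low and the other 3 libraries lay close together. The log2 fold change was 0.50 ± 0.53 (edgeR adjusted p = 0.768), which became -0.19 without control replicate 1 and 1.86 without control replicate 2 (edgeR adjusted p = 1.09e-04). FBN1, the fibrillin of elastic microfibrils, lay between 53.9 and 73.6 CPM, and FBN2, its paralog, between 0.568 and 0.914 CPM, and the groups overlapped in both. MATN2, which encodes an adaptor protein of matrix networks, had 58 and 27 counts in the controls and 11 and 25 counts in the resistant libraries (log2 fold change -1.27 ± 0.65, edgeR adjusted p = 0.466), and its value was -0.43 without control replicate 1.

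Among the matricellular genes TNC and THBS1 had fold changes of opposite sign, and neither was called with all 4 libraries. TNC, tenascin-C, a large glycoprotein of invasive fronts and wounds, lay at 202 and 837 CPM in the controls and 1257 and 1177 CPM in the resistant libraries. Both resistant libraries were above both controls, but the controls were 4.14-fold apart. The log2 fold change was 1.23 ± 0.54 (edgeR adjusted p = 0.381), 0.54 without control replicate 1 and 2.59 without control replicate 2 (edgeR adjusted p = 6.80e-06). Per exon length the group means of TNC were 54.2 and 127 CPM per kb. THBS1, thrombospondin 1, an inhibitor of angiogenesis that also activates latent TGF-beta, lay at 691 and 663 CPM in the controls and 158 and 464 CPM in the resistant libraries. Here the controls were close and the resistant libraries were 2.93-fold apart, with both below the controls. Its log2 fold change was -1.12 ± 0.43 (edgeR adjusted p = 0.300), and it was -0.54 without resistant replicate 1 and -2.09 without resistant replicate 2.

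THBS2, thrombospondin 2, lay at 5.23 and 8.89 CPM in the controls and 10.96 and 11.3 CPM in the resistant libraries, for a fitted log2 change of 0.65 ± 0.29 (edgeR adjusted p = 0.386). Since 31.2% of its exonic bases lie in THBS2-AS1 and strand was not used in counting, its value is uncertain. SPARC, a collagen-binding glycoprotein, had the highest level of the members per exon length in the mean of the 4 libraries. It lay at 162 CPM per kb in the controls and 128 in the resistant group, where LAMC1 was higher at 130. The CPM of SPARC were 723 and 785 in the controls against 564 and 624 in the resistant libraries, which did not overlap. The log2 fold change of SPARC was -0.34 ± 0.17 (edgeR adjusted p = 0.455). POSTN, periostin, a product of activated fibroblasts, lay between 0.506 and 1.31 CPM, with a log2 fold change of -0.76 that was -0.092 without control replicate 1.

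Of the 2 lysyl oxidases among the members, LOXL2 was the more abundant. LOXL4, which is no member and is given below, lay higher than LOXL2 in every library, and its groups overlapped. LOXL2 cross-links collagen IV and fibrillar collagens, and its CPM were 315 and 229 in the controls against 65.2 and 141 in the resistant libraries. Both resistant libraries were below both controls, by 2.64-fold in the fit. The log2 fold change of -1.40 ± 0.35 had an edgeR adjusted p of 0.121 and a DESeq2 adjusted p of 8.73e-04, and was -1.14 without control replicate 1. It was -0.94 without resistant replicate 1 and -2.06 without resistant replicate 2. LOX, the founding member of the family, lay between 0.901 and 1.65 CPM, with a fitted log2 change of 0.53 ± 0.36 (edgeR adjusted p = 0.609). The ratio of LOXL2 to LOX per exon length was 270.2 and 237 in the controls against 37.1 and 108 in the resistant libraries.

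Much of the variation among these genes lay between the control libraries. Of the 27 members averaging 5 CPM or more over the 4 libraries, 5 had controls at least 2-fold apart (18.5%). They were COL6A3, FN1, TNC, COL4A1 and COL5A1, with control replicate 1 the lower in each. The controls were at least 2-fold apart in 379 of 11643 genes of that level (3.26%). Control replicate 2 exceeded control replicate 1 in 20 of the 27 members (74.1%) and in 45.1% of those genes. The median fold between controls was 1.32 over the members and 1.16 over those genes, and between resistant libraries it was 1.11 and 1.14. The resistant libraries were at least 2-fold apart in 3 members (11.1%), THBS1, LOXL2 and COL6A3, beside 1.23% of genes. In 17 members (63.0%) the controls differed by more than the groups did, beside 52.1% of genes.

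**Figure D4:**
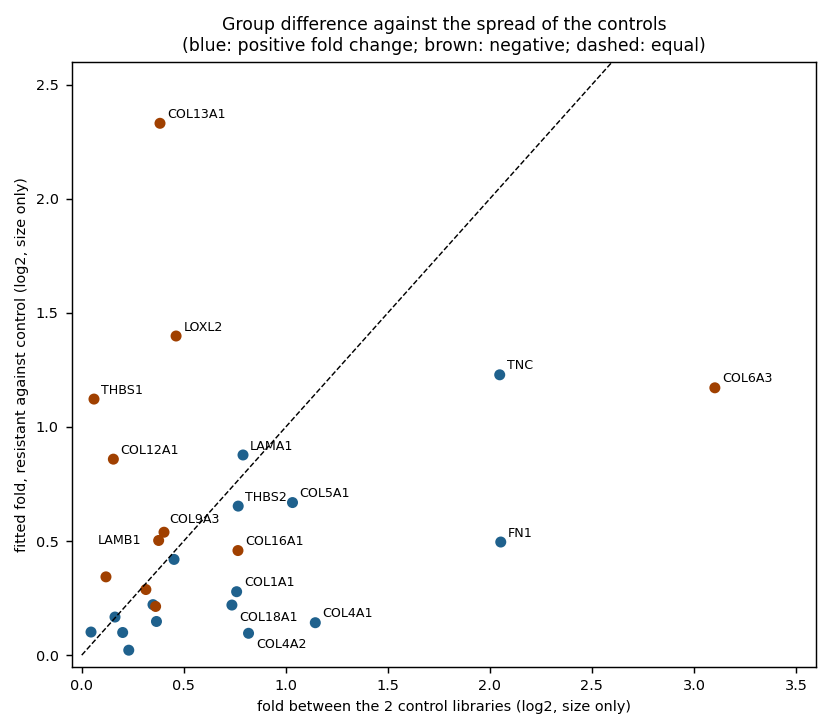
Size of the fitted difference between resistant and control cells (vertical axis, log2) against the fold between the 2 control libraries (horizontal axis, log2) for the 27 members of at least 5 CPM, with a dashed line where they are equal. COL13A1, LOXL2, THBS1 and COL12A1 lie well above the line, and COL6A3, FN1, TNC and COL4A1 lie below it.

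Leaving out a control library changed which members were called. Without control replicate 1, 6 members were called (17.1%, beside 2.99% of 27700 genes), and all 6 were lower: COL13A1, COL12A1, COL16A1, COL6A3, THBS1 and LOXL2. Without control replicate 2, 9 were called (25.7%, beside 8.15% of 26580 genes), with FN1, THBS2, TNC, COL5A1, COL4A1 and LAMA1 higher and COL12A1, LOXL2 and COL13A1 lower. COL13A1, COL12A1 and LOXL2 were called lower in both fits. With a lone control, that library is assumed to vary like the resistant group. Halving the even counts of control replicate 1 left COL13A1 as the single call. The part of that library's even counts in these differences was not tested.

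Ratios between partner chains or related genes, per exon length, show which of them shared their variation. LAMA5 and LAMA4 are compared as related laminin alpha chains, and THBS1 and THBS2 as related thrombospondins. COL5A2 to COL5A1 was 20.2 and 11.3 in the controls against 9.30 and 9.91 in the resistant libraries. LAMA5 to LAMA4 was 4.88 and 4.77 in the controls against 3.40 and 3.38 in the resistant libraries, with less spread within each group than between them. LAMC1 to LAMA5 stayed between 1.30 and 1.54 over all 4 libraries. COL6A1 to COL6A3 ran from 3.11 in control replicate 2 to 25.9 in control replicate 1, with 19.6 and 10.2 in the resistant libraries. COL6A1 and COL6A3 thus kept no fixed proportion in the RNA. COL6A1 to COL6A2 varied less, at 1.74 and 1.32 in the controls against 1.18 and 1.22 in the resistant libraries. THBS1 to THBS2 was 104 and 58.6 in the controls against 11.4 and 32.4 in the resistant libraries. These ratios are described without a test.

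**Figure D5:**
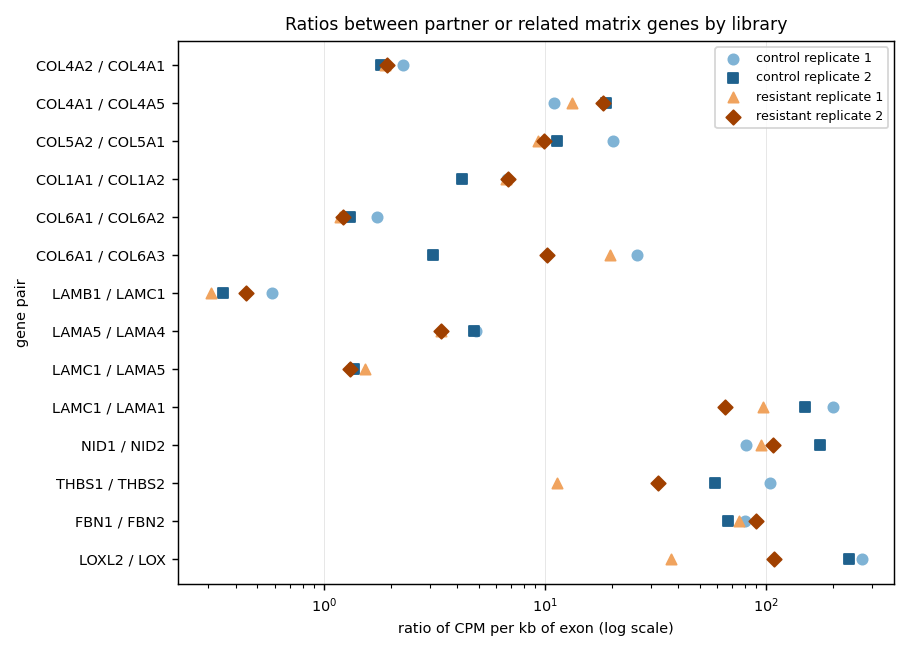
Ratio of CPM per kb of exon between partner or related matrix genes (horizontal axis, log scale) in each library. COL4A2 to COL4A1 stays within 1.82 to 2.28, LAMA5 to LAMA4 separates the groups at 4.77 to 4.88 against 3.38 to 3.40, and COL6A1 to COL6A3 spreads from 3.11 to 25.9.

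Other genes of matrix biology were read from 6 lists. Over all genes, 1.09% were called by edgeR, 13.5% had an unadjusted p under 0.05 and 5.2% were called by DESeq2. These shares stand beside the counts of each list. Of 25 tested collagens outside the members edgeR called 1 higher and none lower, 7 had an unadjusted p under 0.05, and the median log2 fold change was 0.13. DESeq2 called 2 higher and 1 lower. The gene called by edgeR was COL5A3, the third chain of collagen V, named after its values were seen because it lies under 5 CPM. It had 22 and 38 counts in the controls against 179 and 237 in the resistant libraries, 7.16-fold higher (edgeR adjusted p = 0.0247, and 0.137 without resistant replicate 2). Of 17 other laminin and basement membrane genes edgeR called 1 higher and none lower, and DESeq2 called 1 higher and 3 lower. The gene called by edgeR was LAMC3, a laminin gamma chain also named after its values were seen. It had 24, 52, 185 and 268 counts in control replicates 1 and 2 and resistant replicates 1 and 2 (edgeR adjusted p = 0.0360, and 0.179 without resistant replicate 2). The genes with the highest level per exon length in these lists were not called. COL27A1, a fibrillar collagen, had an edgeR adjusted p of 0.972, and AGRN, the proteoglycan agrin, lay at 730.1 to 824 CPM with an edgeR adjusted p of 0.959.

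Of 26 genes for collagen folding and secretion none was called by edgeR, 8 had an unadjusted p under 0.05 and DESeq2 called 3 higher and 1 lower. FKBP10, an endoplasmic reticulum prolyl isomerase for procollagen, had the highest level per exon length in this list and a log2 fold change of 0.20 ± 0.18, for an edgeR adjusted p of 0.701. Of 15 maturation genes none was called by edgeR, 5 had an unadjusted p under 0.05, DESeq2 called 1 lower, and the median log2 fold change was -0.44. LOXL4, a lysyl oxidase, was the most abundant of them per exon length and lay at 445 and 881 CPM in the controls and 734 and 764 CPM in the resistant libraries, with control replicate 1 again the lowest.

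Of 44 elastic fibre and other glycoprotein genes edgeR called 1 higher and 1 lower, and DESeq2 called 3 higher and 5 lower. EMILIN1, an elastic fibre glycoprotein, fell 2.38-fold, from 41.5 and 37.7 CPM to 18.9 and 14.3 CPM (edgeR adjusted p = 0.0415, and 0.208 without resistant replicate 2). FBLN5, fibulin 5, named after its values were seen, rose from 0.559 and 0.889 CPM to 4.85 and 3.80 CPM (edgeR adjusted p = 0.0308, and 0.114 without resistant replicate 2). CCN1, a matricellular protein, was the most abundant of that list per exon length and had an edgeR adjusted p of 0.776.

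Of 27 matrix receptor genes edgeR called none higher and 2 lower, 11 had an unadjusted p under 0.05, and DESeq2 called 2 higher and 2 lower. ITGB4, the integrin beta4 chain that binds laminin, fell 7.85-fold, from 1482 and 1422 CPM in the controls to 114 and 256 CPM in the resistant libraries (edgeR adjusted p = 0.0206). DAG1, dystroglycan, which binds the globular domains of laminin alpha chains, fell from 283 and 284 CPM in the controls to 148 and 116 CPM in the resistant libraries (edgeR adjusted p = 0.0444, and 0.235 without resistant replicate 2). Both are receptors for laminins.

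Markers of other cell types were low. The 10 fibroblast markers summed to 46.6 and 35.9 CPM in the controls and 31.2 and 33.6 CPM in the resistant libraries, 8 were tested, none was called by edgeR, and DESeq2 called 1 lower. Of these 8, 6 had an unadjusted p under 0.05, beside 13.5% of all genes. The fold change was negative in 6 of the 8 and positive in 2, with a median of -0.90. ACTA2 had the highest level of the list per exon length. PDGFRB and LUM are examples of the lower ones and do not stand for the whole list. PDGFRB lay at 31.4 and 19.6 CPM in the controls and 13.97 and 18.4 CPM in the resistant libraries. LUM lay at 2.18 and 1.43 CPM in the controls and 0.366 and 0.145 CPM in the resistant libraries. No marker of the list was at 0 in all libraries. Endothelial markers summed to 22.4 and 24.2 CPM in the controls and 49.3 and 27.6 CPM in the resistant libraries. Of the 7 tested, 2 had an unadjusted p under 0.05, none was called by edgeR, and DESeq2 called 1 higher. Leukocyte markers summed to 1.06 to 2.31 CPM. The part of such cells or expression in the differences of the collagen genes was not tested.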

How the data were processed

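Raw counts for each gene were deposited, which the authors made with featureCounts 2.0.0 on duplicate-marked alignments against GENCODE 42, per the file headers. The headers list no options beyond annotation and output, so by that program's defaults strand was ignored, mates were counted singly, reads of several places or genes were dropped and duplicates counted. Where exons are shared, reads from a gene and its antisense partner therefore could not be told apart and were counted for neither. Levels per exon length still divide by the whole exon length, so they may be too low in such genes. STAR, DESeq2 and GRCh38 are listed by the submitters' processing notes. File names of the resistant group carry other sample numbers than the labels do, and the deposited record decided. A table of log fold changes that names no comparison, and the drug combination and glycan work, were not analysed here.

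Symbols matched 62625 of 62649 identifiers. Genes passing edgeR's filterByExpr (24961) were scaled by TMM and tested with the quasi-likelihood test, group as sole term, two-sided (R 4.3.3, edgeR 4.0.16, limma 3.58.1; DESeq2 1.42.0 as an alternative). The biological coefficient of variation was 25.5%, with 2 residual degrees of freedom. A count of 3 equals 0.0344 to 0.0441 CPM, which covers counting error only. CPM per kb divides by merged exon length from the files. The script was tested on simulated data. All 35 members are named, and from each further list up to 2 called genes per direction of at least 5 CPM and the gene with the highest level per exon length. Members and lists were chosen with earlier results of these data known. Promoters came from RefSeq (26 of 35 members matched), and motifs were searched on both strands. The labels' replicate numbers were not taken as pairs: across 10089 genes the deviations of same-numbered libraries had a correlation of -0.00615, and the labels name no shared culture. Alternatives were other scalings and filters, DESeq2, control replicate 1 halved, a replicate block and each library left out.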

Additional observations from a re-analysis of the deposited data

How the results depend on the processing

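Over all genes, 272 were called by edgeR, 1229 by DESeq2, 1866 with no filter on low counts, 64 with the replicate block, and 16 to 2166 with 1 library left out (fewest without resistant replicate 2, most without control replicate 2). The members called were 1, 4, 8 and 0 in the same settings and 1 to 9 with 1 library left out. By edgeR, by DESeq2, with no filter and with the block, these were 2.86%, 11.4%, 22.9% and 0% of the members. The genes tested numbered 24961, 23622, 44966 and 24961 in the same order, so the counts over all genes have unlike denominators. The shares of all genes called were 1.09% by edgeR and 5.2% by DESeq2. The fits with 1 library left out held 26580 to 27700 genes. Of the 35 members' values, other scalings, the filter of 10 counts in 3 libraries and the halved library changed no call. COL1A2 turned to 0.0072 with library totals alone and to 0.0039 with no filter, and FBN2 to -0.0054 with the replicate block. The libraries share a replicate number without a stated shared culture, so the block's lost call of COL13A1 (adjusted p = 0.056 in edgeR) is given without reading it as a weaker effect. With 1 library left out, the log2 ratios of class sums ran from -0.26 to 0.63 in basement membrane collagens, -0.43 to 0.42 in collagen VI, -2.78 to -1.99 in the transmembrane collagen, -0.34 to -0.21 in laminins, -0.13 to 1.37 in the class of fibronectin, -0.10 to 0.40 in matricellular proteins, -2.03 to -0.94 in lysyl oxidases and -0.29 to 0.10 over all members. For the remaining classes these ratios ran from 0.039 to 0.31 in fibrillar collagens, -0.74 to -0.38 in fibril-associated collagens and -0.083 to 0.14 in nidogens. The lowest value in fibrillar collagens was without control replicate 1. Fold changes of single genes changed sign in the same fits, which assume that a lone library varies like the other group. They ran from -0.050 to 0.71 in COL1A1, -0.056 to 0.029 in COL1A2, -0.27 to 0.72 in COL11A1, -0.32 to 0.83 in COL4A1, -0.25 to 0.56 in COL4A2, -0.027 to 0.35 in COL4A5, -0.10 to 0.64 in COL18A1, -2.01 to 1.09 in COL6A3, -0.087 to 0.14 in NID1, -0.18 to 0.71 in NID2, -0.19 to 1.86 in FN1, -0.055 to 0.37 in FBN1 and -0.34 to 0.34 in FBN2. The cause was not tested. Members under 2 CPM (7 genes) rest on few counts.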
